A study of Mus musculus with 23 samples.

Results

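The 10 genes described here mark the hepatocytes around the central vein of the liver lobule or are direct targets of Wnt signalling in them: *Glul*, *Oat*, *Rhbg*, *Slc1a2*, *Axin2*, *Nkd1*, *Lgr5*, *Tbx3*, *Lect2* and *Cyp1a2*. They were taken by symbol from a table of 27179 genes, and all 10 were found and had counts in each of the 15 mice. In the liver, endothelial cells of the central vein secrete Wnt ligands and an R-spondin, and in the neighbouring hepatocytes these stabilise β-catenin, which acts with TCF factors on its target genes. That signal sets the pericentral programme, which includes glutamine synthesis from ammonium, many cytochrome P450 enzymes and feedback regulators of the Wnt pathway itself. Hepatocytes around the portal tract, where the blood enters, carry a different programme with urea synthesis and gluconeogenesis.

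RNA was sequenced from frozen liver, free of visible tumours, of 15 female mice in 3 groups that differed in *Braf* and *Icmt*. The 6 Ctrl mice had wild-type *Braf*, Trp53 flx/flx and Icmt flx/+, and the 6 ABpI F/+ mice had Trp53 flx/flx and Icmt flx/+ together with BrafCA/+, a knockin allele that Cre turns into the V600E form. The 3 ABpI F/F mice carried BrafCA/+ and Trp53 flx/flx with Icmt flx/flx, so both copies of *Icmt* were floxed. Every mouse carried Alb-Cre, which recombines floxed alleles in hepatocytes, and thus all 3 groups shared the *Trp53* deletion and at least 1 floxed *Icmt* allele. Recombination in other liver cells was not tested. The sample labels write BRAF +/+ for both ABpI groups where the design text gives BrafCA/+ and give no ages. The 3 ABpI F/F mice, the only ones obtained, were 12, 20 and 30 weeks old, and which was which is not stated, nor are the ages of the other groups. The strain label of 5 Ctrl mice is a single B6 line, while Ctrl replicate 2 and all 9 ABpI mice carry the label of that line crossed to another, so strain label and *Braf* genotype largely coincide.

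Between 24742910 and 32262649 counts per mouse were assigned to genes, and the medians were 26159031.5 (Ctrl), 29647774.5 (ABpI F/+) and 29731850 (ABpI F/F). Levels are given as CPM, counts relative to the TMM-scaled size of each library. Each mouse is 1 replicate, and replicates are numbered in the order in which the mice are listed. Of 8 hepatocyte markers none was at 0 in any mouse, and *Alb*, the most abundant, held 9.36% ± 0.962 (mean ± SD, n = 6) of Ctrl counts, 14.2% ± 1.49 (n = 6) of ABpI F/+ counts and 14.9% ± 2.92 (n = 3) of ABpI F/F counts. *Icmt* itself lay at 27.8 to 34.7 CPM in Ctrl, 27.8 to 37.4 in ABpI F/+ and 15.2 to 16.6 in ABpI F/F mice, and the ABpI F/F range did not meet the others.

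Together the 10 genes took a median of 0.355% of counts in Ctrl mice, with 0.274% the lowest and 0.372% the highest. The share was 0.0705% in the median ABpI F/+ mouse, with 0.0574% the lowest and 0.0932% the highest. In ABpI F/F replicates 1, 2 and 3 it was 0.0636%, 0.0720% and 0.0291%. Thus every ABpI mouse lay below every Ctrl mouse, and ABpI F/F replicate 3 lay below all others. Per kilobase of exon, the Ctrl levels formed tiers. *Oat* stood at 429.8 ± 142 CPM per kb (mean ± SD, n = 6), *Glul* at 329 ± 38.3 and *Cyp1a2* at 322 ± 37.8, 3 genes whose order was within their spread. *Lect2* followed at 122 ± 21.5 and *Slc1a2* at 20.3 ± 3.63 CPM per kb, each apart from its neighbours. *Rhbg* at 5.86 ± 1.44 and *Tbx3* at 5.18 ± 1.31 overlapped, as did *Nkd1* at 1.89 ± 0.494 and *Axin2* at 1.55 ± 0.418, and *Lgr5* was lowest at 0.736 ± 0.171 CPM per kb. The spacing of the genes was not the same in every group. In ABpI F/F mice the 4 highest levels could not be ordered beyond their spread, with *Lect2* at 61.4 ± 25.9 CPM per kb (mean ± SD, n = 3), *Cyp1a2* at 58.3 ± 19.5, *Oat* at 56.8 ± 36.7 and *Glul* at 56.3 ± 35.3. In ABpI F/+ mice *Oat*, at 132 ± 31.1 CPM per kb (mean ± SD, n = 6), and *Glul*, at 74.0 ± 17.4, stayed ahead of *Cyp1a2* at 33.9 ± 6.61 and *Lect2* at 31.0 ± 9.57, and the order within each pair was within the spread.

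Differences between groups were tested with edgeR over all 27179 genes, and calling a gene took an adjusted p under 0.01 together with a change of at least 2-fold, that is a log2 fold change of 1 or more in size. ABpI F/+ vs Ctrl asks what BrafCA/+ changed where 1 *Icmt* allele is floxed in both groups. ABpI F/F vs Ctrl asks what BrafCA/+ and the second floxed *Icmt* allele changed together, and it cannot tell the 2 apart. ABpI F/+ vs ABpI F/F asks what the second floxed *Icmt* allele changed. The first 2 comparisons share the Ctrl mice and are therefore given side by side. In ABpI F/+ vs Ctrl, 9 of 10 genes were called lower, against 7.13% of the 20380 genes with a count, and all 10 were lower without overlap between the groups, against 10.8% of genes. *Slc1a2* was the gene not called there, and 0 of the 10 were called higher by edgeR or DESeq2, against 6.26% of genes in edgeR. In ABpI F/F vs Ctrl, 7 of 10 were called lower, against 3.17% of genes, and again all 10 were lower without overlap, against 10.5% of genes. *Axin2*, *Lgr5* and *Lect2* were the 3 not called, and again neither tool called any of the 10 higher, against 6.06% of genes in edgeR. With DESeq2 in place of edgeR, 10 and 9 genes were called in these comparisons, *Slc1a2*, *Axin2* and *Lgr5* being the additions, and with RLE size factors 9 and 7. Among the 12316 genes whose mean reached 1 CPM, all 10 included, 9.39% were called lower in ABpI F/+ vs Ctrl and 5.04% in ABpI F/F vs Ctrl. The 10 genes had a median of -2.07 on the log2 scale in ABpI F/+ vs Ctrl and -1.99 in ABpI F/F vs Ctrl, where the medians of those 12316 genes were 0.02 and -0.00. In bulk tissue, fewer pericentral cells and less RNA per cell cannot be told apart.

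**Figure D1:**
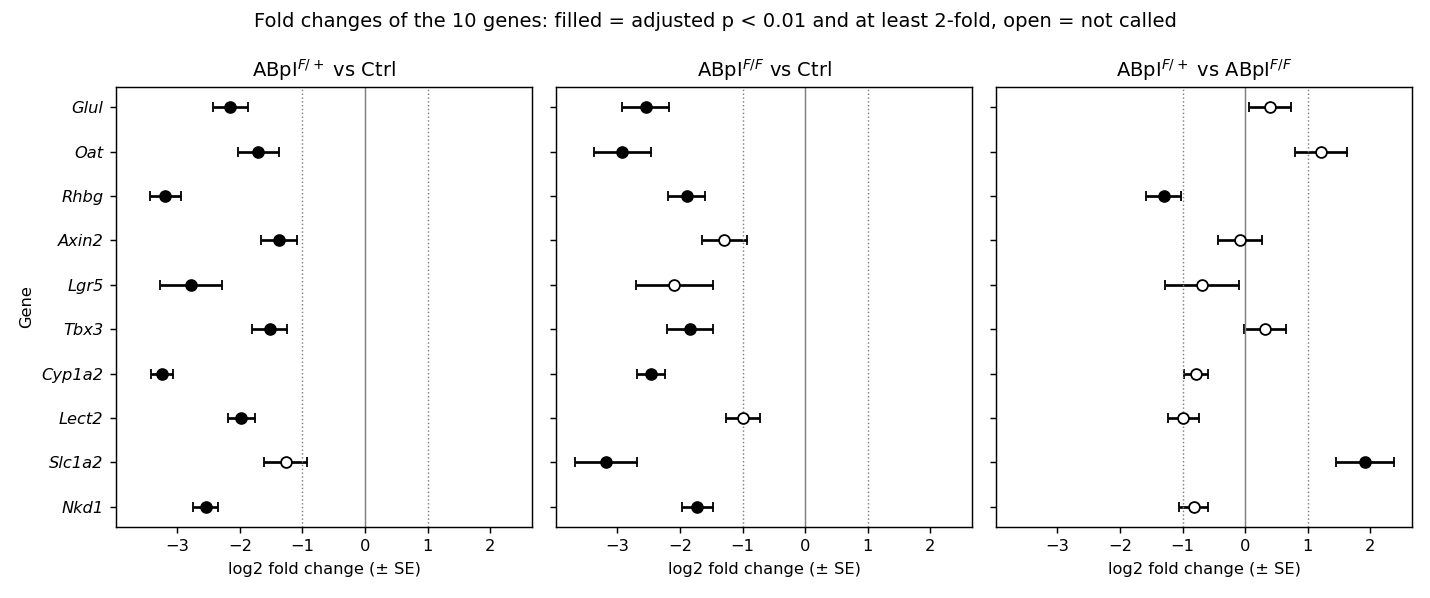
Log2 fold changes of the 10 genes in the 3 comparisons from edgeR, with bars of 1 SE; filled points are called. All 20 values against Ctrl lie below 0, from -3.25 for *Cyp1a2* to -0.99 for *Lect2*, whereas ABpI F/+ vs ABpI F/F has values on both sides of 0, where *Slc1a2* is called higher and *Rhbg* lower; with RLE size factors *Slc1a2* is not called there and *Lect2* is, and DESeq2 also calls *Lect2* lower and *Oat* higher there.

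4 of the genes handle glutamine, glutamate or ammonium. *Glul* (Entrez 14645, chromosome 1 from 153899944 to 153909723) encodes glutamine synthetase, which joins ammonium to glutamate and in normal liver is confined to the hepatocytes nearest the central vein. Its lowest, median and highest levels were 861, 1106 and 1233 CPM in Ctrl and 185, 241 and 307 CPM in ABpI F/+ mice, and 222, 283 and 56.3 CPM in ABpI F/F replicates 1, 2 and 3. ABpI F/F replicates 1 and 2 lay within the ABpI F/+ range and replicate 3 far below it, and no ABpI mouse came near the lowest Ctrl mouse. The log2 fold change was -2.15 (SE 0.28, adjusted p 1.29e-05) in ABpI F/+ vs Ctrl, a fitted 22.5% of the Ctrl level, and -2.55 (SE 0.38, adjusted p 9.91e-05) in ABpI F/F vs Ctrl. ABpI F/+ vs ABpI F/F gave 0.39 (SE 0.33, adjusted p 0.546), not called, and -0.04 without ABpI F/F replicate 3. *Oat* (Entrez 18242, chromosome 7 from 132557478 to 132576398) encodes ornithine aminotransferase, a mitochondrial enzyme that links ornithine to glutamate. Ctrl mice had 527, 1073 and 1345 CPM of *Oat* at the lowest, median and highest, ABpI F/+ mice 206, 313 and 419, and ABpI F/F replicates 1, 2 and 3 139.7, 218 and 44.9 CPM. The Ctrl group was wide here, since replicate 5 lay at 527 CPM and replicate 2 at 1345, yet the highest ABpI F/+ mouse remained below the lowest Ctrl mouse. *Oat* was called lower in ABpI F/+ vs Ctrl at -1.71 (SE 0.32, adjusted p 0.000856), and likewise in ABpI F/F vs Ctrl at -2.92 (SE 0.45, adjusted p 0.000256).

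*Rhbg* (Entrez 58176, chromosome 3 from 88242874 to 88254709) encodes an ammonium transporter of the hepatocyte membrane. It lay at 8.92, 10.8 and 16.4 CPM at the lowest, median and highest of the Ctrl mice, at 0.921, 1.13 and 1.85 CPM in ABpI F/+ mice, and at 4.54, 3.00 and 1.66 CPM in ABpI F/F replicates 1, 2 and 3. The ABpI F/+ mice were the lowest group, and only ABpI F/F replicate 3 lay within their range. ABpI F/+ vs Ctrl stood at -3.19 (SE 0.24, adjusted p 1.65e-09), 11.0% of Ctrl, and ABpI F/F vs Ctrl at -1.89 (SE 0.29, adjusted p 5.78e-05), 26.9% of Ctrl. The direct comparison ABpI F/+ vs ABpI F/F was called lower at -1.30 (SE 0.28, adjusted p 0.002), but without ABpI F/F replicate 1 it was -0.90 and no longer called. The annotated exons of *Rhbg* share 1190 of their 1937 bases with another gene model on the same strand, *Gm38392*, so its counts carry that uncertainty. *Slc1a2* (Entrez 20511, chromosome 2 from 102658659 to 102790784) encodes a transporter that takes glutamate up into pericentral hepatocytes. Its levels were 212, 256 and 349 CPM at the lowest, median and highest in Ctrl, 66.0, 106 and 163 CPM in ABpI F/+ mice, and 44.0, 37.9 and 6.51 CPM in ABpI F/F replicates 1, 2 and 3. The 3 groups did not overlap at all, with Ctrl highest, ABpI F/+ between and ABpI F/F lowest. ABpI F/F vs Ctrl was called at -3.18 (SE 0.50, adjusted p 0.000386), a fitted 11.0% of the Ctrl level. ABpI F/+ vs Ctrl was -1.27 (SE 0.35, adjusted p 0.0135) and missed the threshold on adjusted p, but was called, at -1.27, without ABpI F/F replicate 3, a mouse that enters this comparison through the estimate of spread shared by the 3 groups. ABpI F/+ vs ABpI F/F was 1.91 (SE 0.46, adjusted p 0.00956), higher in ABpI F/+ and just past the threshold. That call was lost when any Ctrl mouse, any ABpI F/+ mouse but replicate 5, or ABpI F/F replicate 2 was left out, with log2 fold changes of 1.77 to 2.13 in those 12 fits.

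**Figure D2:**
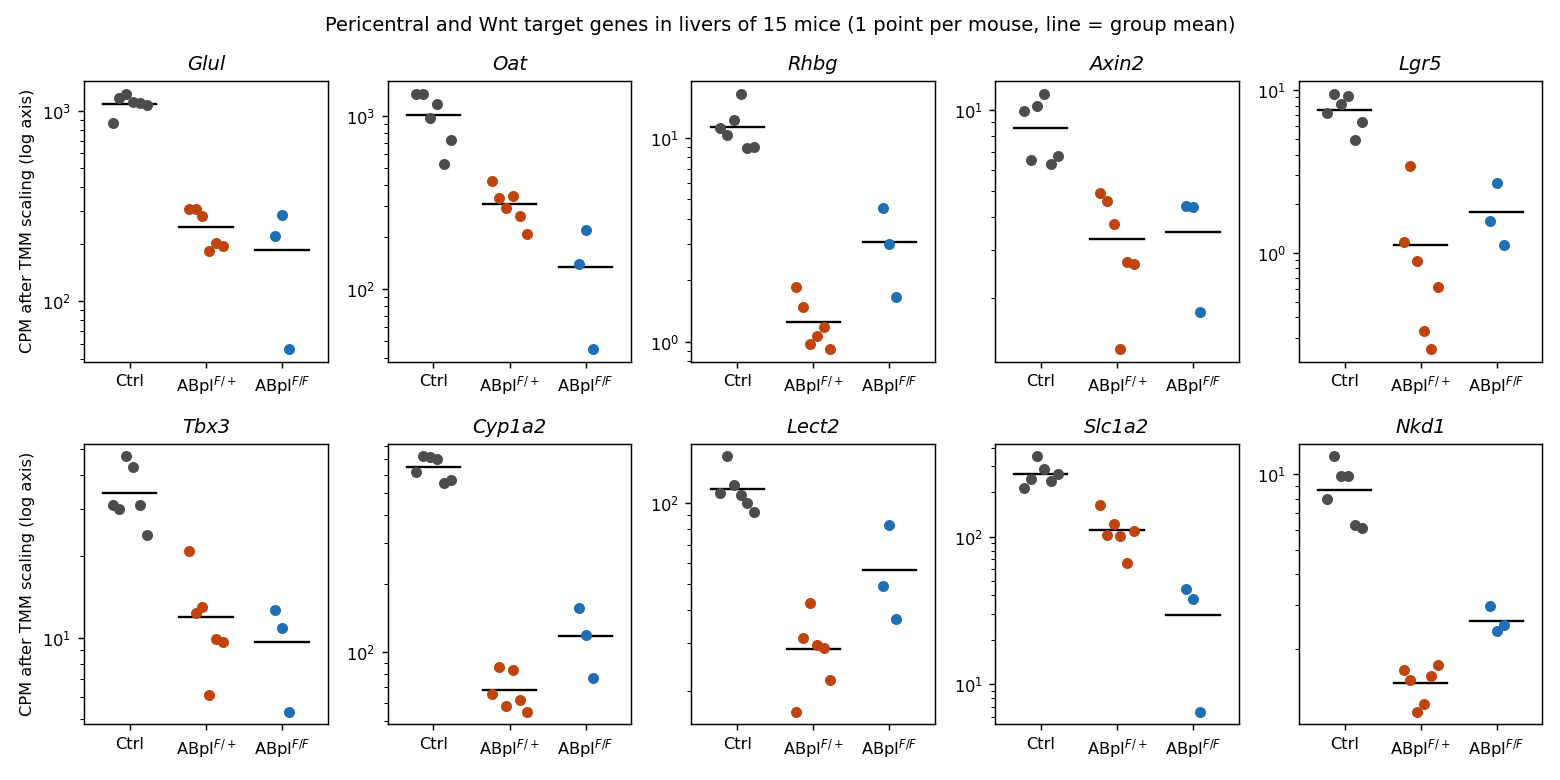
CPM of each of the 10 genes in every mouse on log axes, 1 panel per gene, with the 3 groups side by side, 1 point per mouse and the group mean as a line. Every ABpI point lies below every Ctrl point in each panel, and ABpI F/F replicate 3 is the lowest of its group for 9 of the 10 genes.

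4 genes are Wnt targets that act back on the pathway or on cell fate. *Axin2* (Entrez 12006, chromosome 11 from 108920349 to 108950783) encodes a scaffold of the complex that degrades β-catenin and is induced by the pathway it restrains. It lay at 6.28, 8.33 and 11.5 CPM at the lowest, median and highest of Ctrl, at 1.29, 3.23 and 4.90 CPM in ABpI F/+ mice and at 4.41, 4.36 and 1.77 CPM in ABpI F/F replicates 1, 2 and 3. All 3 ABpI F/F mice lay within the ABpI F/+ range, and the gap between the highest ABpI F/+ and the lowest Ctrl mouse was small. ABpI F/+ vs Ctrl was called at -1.37 (SE 0.29, adjusted p 0.00111). ABpI F/F vs Ctrl was close to it in size at -1.29 (SE 0.36, adjusted p 0.0171) but was not called, and leaving out ABpI F/+ replicate 4 gave -1.30 and a call. The same comparison gave -0.96 without ABpI F/F replicate 3 and -1.49 without ABpI F/F replicate 1. *Nkd1* (Entrez 93960, chromosome 8 from 88521354 to 88594884) encodes a protein that binds Dishevelled and dampens the signal, and it is likewise induced by Wnt. Ctrl mice had 6.08, 8.89 and 11.8 CPM at the lowest, median and highest, ABpI F/+ mice 1.13, 1.54 and 1.74 CPM, and ABpI F/F mice 2.97, 2.36 and 2.49 CPM. Of the 10 genes it varied least within both ABpI groups, with coefficients of variation of 16.7% and 12.3%, and these groups overlapped neither each other nor Ctrl. It was called lower in ABpI F/+ vs Ctrl at -2.54 (SE 0.20, adjusted p 2.22e-09) and also in ABpI F/F vs Ctrl at -1.72 (SE 0.24, adjusted p 2.29e-05), and ABpI F/+ vs ABpI F/F at -0.82 (SE 0.23, adjusted p 0.0157) was not called.

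*Lgr5* (Entrez 14160, chromosome 10 from 115450311 to 115587780) encodes the receptor through which R-spondins strengthen Wnt signalling. Its Ctrl levels were 4.91, 7.67 and 9.48 CPM at the lowest, median and highest, those of ABpI F/+ mice 0.256, 0.751 and 3.40 CPM, and those of ABpI F/F replicates 1, 2 and 3 1.57, 2.68 and 1.11 CPM. ABpI F/+ replicate 2 stood apart at the top of its group, while the other 5 ABpI F/+ mice lay at or below 1.17 CPM. ABpI F/+ vs Ctrl was called at -2.78 (SE 0.49, adjusted p 0.000477), and without that mouse it was -3.54. ABpI F/F vs Ctrl was -2.09 (SE 0.61, adjusted p 0.0269), not called with all mice, and called at -2.09 when ABpI F/+ replicate 2 was left out. *Tbx3* (Entrez 21386, chromosome 5 from 119670669 to 119684724) encodes a T-box transcription repressor that in adult liver is found in pericentral hepatocytes. Levels were 24.1, 31.1 and 46.9 CPM at the lowest, median and highest in Ctrl, 6.12, 11.1 and 20.9 CPM in ABpI F/+, and 12.6, 10.9 and 5.32 CPM in ABpI F/F replicates 1, 2 and 3. ABpI F/F replicates 1 and 2 sat within the ABpI F/+ range and replicate 3 below it. It was called lower in ABpI F/+ vs Ctrl at -1.52 (SE 0.28, adjusted p 0.00066) and again in ABpI F/F vs Ctrl at -1.84 (SE 0.36, adjusted p 0.00213), where leaving out ABpI F/F replicate 3 gave -1.54 and no call. Antisense gene models share 209 of 5506 exon bases of *Axin2*, 115 of 6624 of *Tbx3* and 189 of 13133 of *Slc1a2*, and the strand setting of the counting is not given in the sources.

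The last pair are an enzyme and a secreted protein. *Cyp1a2* (Entrez 13077, chromosome 9 from 57676937 to 57683703) encodes a cytochrome P450 of drug and oestrogen metabolism that is among the classic pericentral enzymes and is also a target of the aryl hydrocarbon receptor. Its levels were 555, 663 and 722 CPM at the lowest, median and highest in Ctrl, 54.9, 63.6 and 86.4 CPM in ABpI F/+ mice, and 156, 119 and 77.3 CPM in ABpI F/F replicates 1, 2 and 3. The spread within Ctrl and within ABpI F/+ was narrow and the gap between them wide, with ABpI F/F replicates 1 and 2 above all ABpI F/+ mice and replicate 3 among them. It had the lowest value of the 10 in ABpI F/+ vs Ctrl, -3.25 (SE 0.17, adjusted p 7.55e-12), a fitted 10.5% of Ctrl, and stood at -2.47 (SE 0.22, adjusted p 5.06e-08) in ABpI F/F vs Ctrl. ABpI F/+ vs ABpI F/F was -0.78 (SE 0.19, adjusted p 0.00524), under 2-fold and so not called, but without ABpI F/F replicate 3 it was -1.01 and called. *Lect2* (Entrez 16841, chromosome 13 from 56542464 to 56548502) encodes a cytokine that hepatocytes secrete into the blood and is a target of β-catenin in liver. Ctrl mice had 92.5, 108 and 149 CPM at the lowest, median and highest, ABpI F/+ mice 16.7, 29.1 and 42.5 CPM, and ABpI F/F replicates 1, 2 and 3 49.2, 83.1 and 37.1 CPM. ABpI F/F replicate 2 was close to the lowest Ctrl mouse, replicate 1 lay between the groups and replicate 3 within the ABpI F/+ range. *Lect2* was called lower in ABpI F/+ vs Ctrl at -1.98 (SE 0.22, adjusted p 1.62e-06). ABpI F/F vs Ctrl was -0.99 (SE 0.27, adjusted p 0.014), not called, and -1.38 and called without ABpI F/F replicate 2. ABpI F/+ vs ABpI F/F was -0.99 (SE 0.25, adjusted p 0.00937), just under 2-fold, and was called at -1.14 without ABpI F/+ replicate 3 and at -1.22 without ABpI F/F replicate 3.

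For ABpI F/+ against ABpI F/F, 1 of 10 genes was called lower (*Rhbg*), against 7.32% of genes with a count and 8.5% of the genes with at least 1 CPM, and 1 higher (*Slc1a2*), against 2.35%. Without overlap, 1 gene was lower in ABpI F/+ (*Nkd1*), against 12.7% of genes, and 1 was higher (*Slc1a2*), against 12.2%. Scaling by RLE size factors lost the call of *Slc1a2* and added *Lect2*, DESeq2 added *Oat* at 1.20 and *Lect2*, the latter only just past 2-fold in both, and an edgeR fit on the mice of these groups alone called 0 of the 10, with 6 at an unadjusted p under 0.05. In that fit *Rhbg* was -1.32 and *Slc1a2* 1.89, against -1.30 and 1.91 in the main fit. The median log2 fold change in the main fit was -0.38, where that of all genes reaching 1 CPM was 0.04. The 10 genes spread from -1.30 to 1.91, with *Rhbg*, *Lect2*, *Nkd1*, *Cyp1a2*, *Lgr5* and *Axin2* below 0 and *Slc1a2*, *Oat*, *Glul* and *Tbx3* above 0. ABpI F/F replicate 3 was the lowest of its 3 mice for 9 of the 10 genes, the exception being *Nkd1*, and its library also had the largest TMM factor, 1.24. Replicate 1 was highest for 6 genes and replicate 2 for 4. Among ABpI F/+ mice no replicate held the lowest value for more than 3 genes, and replicate 1 held the highest for 5. In Ctrl, replicate 5 was lowest for 5 genes and replicate 2, the mouse with the crossed strain label, highest for 5. With strain label as a term in the model, edgeR called 5 genes in ABpI F/+ vs Ctrl and 5 in ABpI F/F vs Ctrl, and over all genes 811 and 691 lower, where the fit without that term called 1454 and 647. It is a fit in which that single mouse carries the comparison, so that strain and genotype largely cannot be told apart.

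Central vein endothelium secretes signals of the pathway, but whole tissue does not show which cells carry the transcripts listed here. Of 23 Wnt ligands and R-spondins, 19 had a count and 7 reached a mean of 1 CPM. Of the 23, edgeR called 1 lower and 0 higher in ABpI F/+ vs Ctrl, 1 lower and 3 higher in ABpI F/F vs Ctrl, and 2 lower and 0 higher for ABpI F/+ vs ABpI F/F, with 6, 12 and 7 at an unadjusted p under 0.05. DESeq2 called 1 lower and 0 higher, 1 lower and 1 higher, and 1 lower and 1 higher. The medians over the 7 were -0.65, -0.60 and -0.31. *Rspo3* encodes the R-spondin of central vein endothelium. It lay at 3.64, 4.51 and 5.58 CPM at the lowest, median and highest in Ctrl, 1.17, 1.69 and 2.72 CPM in ABpI F/+, and the ABpI F/F mean was 3.05 ± 0.357 CPM (SD, n = 3). Both ABpI groups lay below Ctrl without overlap, and they overlapped each other. *Rspo3* was called lower in ABpI F/+ vs Ctrl at -1.35 (SE 0.23, adjusted p 7.29e-05), while ABpI F/F vs Ctrl at -0.60 (SE 0.27, adjusted p 0.157) and ABpI F/+ vs ABpI F/F at -0.75 (SE 0.27, adjusted p 0.0564) were not called. *Wnt2* and *Wnt9b*, the ligands of that endothelium, were at low levels in whole liver. *Wnt2* ranged over 0.746 to 3.76 CPM in Ctrl and 0.348 to 1.73 in ABpI F/+ and was 1.79, 0.750 and 0.249 CPM in ABpI F/F mice, with overlap and no call, at -1.28 (SE 0.46, adjusted p 0.0476) in ABpI F/+ vs Ctrl. *Wnt9b* ranged over 0.856 to 1.99 CPM in Ctrl and 0.0806 to 1.71 in ABpI F/+ and was 0.881, 0.822 and 0.526 CPM in ABpI F/F mice, again without a call, at -0.92 (SE 0.41, adjusted p 0.113) in ABpI F/+ vs Ctrl.

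*Wnt5a*, a ligand that mostly acts without β-catenin, was 0.205 to 1.31 CPM in Ctrl and 3.23, 5.89 and 4.15 CPM in ABpI F/F mice, at 2.16 (SE 0.40, adjusted p 0.00047) in ABpI F/F vs Ctrl. *Wnt7a* had 3 counts or fewer in every Ctrl and ABpI F/+ library and 0.228, 0.286 and 2.13 CPM in ABpI F/F replicates 1, 2 and 3, at least 8.25-fold higher than Ctrl against a floor of 3 counts per library. Replicate 3 had far more than the other 2, and without it the fitted log2 fold changes of *Wnt7a* were 4.65 in ABpI F/F vs Ctrl, still called, and -3.98 for ABpI F/+ vs ABpI F/F, no longer called. The former was 6.44 with all mice and 7.68 without Ctrl replicate 1. *Wnt16* rested on the same mouse, with 0, 0.107 and 0.831 CPM in ABpI F/F mice, and its call in ABpI F/F vs Ctrl was lost in 11 of the 15 fits that left out 1 mouse, with fitted log2 fold changes from 2.47 without ABpI F/F replicate 3 to 6.19 without Ctrl replicate 4. So of the 3 ligands called higher in ABpI F/F vs Ctrl, only *Wnt5a* did not lean on replicate 3. *Wnt5b* was called lower in ABpI F/F vs Ctrl at -1.50 (SE 0.35, adjusted p 0.00498) with overlapping groups, 2.72 to 13.0 CPM in Ctrl and 3.43, 2.50 and 2.52 CPM in ABpI F/F mice. That call was lost without Ctrl replicate 3 (-1.44) or 5 (-1.43) and without ABpI F/F replicate 1 (-1.66), 2 (-1.42) or 3 (-1.42). *Wnt7b* had 0 counts in all 6 ABpI F/+ mice and 0.326, 0.214 and 0.194 CPM in ABpI F/F mice, at least 2.23-fold lower in ABpI F/+ against that floor.

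Of 16 Frizzled, LRP and LGR receptors and receptor ubiquitin ligases, 11 of them with at least 1 CPM, 0 were called in ABpI F/+ vs Ctrl by edgeR or DESeq2, though 5 had an unadjusted p under 0.05 in edgeR, 2 were called higher in ABpI F/F vs Ctrl and 1 lower in ABpI F/+ vs ABpI F/F. Their median log2 fold changes were -0.02, -0.11 and -0.07. *Fzd5*, a Frizzled receptor, was 4.47 to 12.6 CPM in Ctrl and 18.5, 17.2 and 19.7 CPM in ABpI F/F mice, at 1.22 (SE 0.25, adjusted p 0.00142), and 1.18 without a call when ABpI F/F replicate 3 was left out. *Lgr6* had 3 counts or fewer in each Ctrl and ABpI F/+ library and 0.0653, 0.0715 and 1.16 CPM in ABpI F/F mice, at least 4.05-fold higher than Ctrl. That bound rests on replicate 3, since the other 2 mice had 2 counts each, below the floor. The calls were lost without ABpI F/F replicate 3 or Ctrl replicate 6, with fitted values of 2.81 and 6.67 in ABpI F/F vs Ctrl. *Znrf3* and *Rnf43* encode ligases that remove Frizzled receptors and are themselves Wnt targets. *Znrf3* was not called, at -0.02 (SE 0.13, adjusted p 1) in ABpI F/+ vs Ctrl and -0.27 (SE 0.16, adjusted p 0.298) in ABpI F/F vs Ctrl. *Rnf43* was not called either, at 0.12 (SE 0.19, adjusted p 0.9) in ABpI F/+ vs Ctrl and -0.52 (SE 0.24, adjusted p 0.178) in ABpI F/F vs Ctrl. Of 12 genes of the destruction complex and its Dishevelled regulators edgeR called 0 in each of the 3 comparisons, with 6, 1 and 6 at an unadjusted p under 0.05, and DESeq2 called 1 lower in ABpI F/+ vs Ctrl and 0 in the others. Their median log2 fold changes were 0.01, 0.00 and 0.02. *Ctnnb1*, which encodes β-catenin, was 230.0, 244 and 262 CPM at the lowest, median and highest in Ctrl, 153, 176 and 209.9 CPM in ABpI F/+ and 237, 267 and 269.7 CPM in ABpI F/F mice. The ABpI F/+ mice lay below both other groups without overlap, by less than 2-fold, at -0.45 (SE 0.11, adjusted p 0.00244) in ABpI F/+ vs Ctrl and -0.53 (SE 0.13, adjusted p 0.00502) in ABpI F/+ vs ABpI F/F. Since β-catenin is controlled as a protein, its mRNA level does not measure the activity of the pathway. Among 9 genes for β-catenin and its nuclear partners, *Pygo1*, a coactivator, was the single call of edgeR, higher in ABpI F/+ vs Ctrl at 1.93 (SE 0.32, adjusted p 7.7e-05), while DESeq2 called 1 gene of the list higher there and 1 higher in ABpI F/+ vs ABpI F/F, and *Lef1* stayed at or below 10 counts in any mouse.

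Targets beyond the 10 genes were mixed. Of 15 other Wnt targets, 10 of them with at least 1 CPM, edgeR called 2 higher and 3 lower in ABpI F/+ vs Ctrl, 1 higher and 1 lower in ABpI F/F vs Ctrl, and 4 lower and 0 higher in ABpI F/+ vs ABpI F/F, where DESeq2 called 3 lower and 0 higher and 7 had an unadjusted p under 0.05 in edgeR. Their median log2 fold changes were -0.08, -0.15 and -0.00. *Notum* encodes a secreted enzyme that removes the lipid from Wnt ligands, and in liver it follows the pericentral genes. It was 42.1, 49.6 and 68.5 CPM at the lowest, median and highest in Ctrl, 11.7, 14.6 and 17.3 CPM in ABpI F/+, and 31.6, 29.4 and 7.76 CPM in ABpI F/F replicates 1, 2 and 3. All ABpI mice were below all Ctrl mice, and ABpI F/F replicate 3 was the lowest of the 15. *Notum* was called lower in ABpI F/+ vs Ctrl at -1.83 (SE 0.26, adjusted p 5.74e-05), and ABpI F/F vs Ctrl at -1.20 (SE 0.32, adjusted p 0.0166) was not called with all mice and was called without ABpI F/F replicate 1, at -1.50. Without ABpI F/F replicate 3 the latter comparison gave -0.78. ABpI F/+ vs ABpI F/F at -0.64 (SE 0.30, adjusted p 0.186) was not called, but was called lower without ABpI F/F replicate 3, at -1.05. Antisense gene models share 708 and 210 of the 2408 exon bases of *Notum*. *Sp5*, a transcription factor induced by Wnt in many tissues, was not called, at -0.95 (SE 0.38, adjusted p 0.0776) in ABpI F/+ vs Ctrl and -1.34 (SE 0.50, adjusted p 0.0698) in ABpI F/F vs Ctrl, the latter -1.95 without ABpI F/F replicate 1 and -0.93 without replicate 3. *Ccnd1*, which encodes cyclin D1 and answers to several growth signals besides Wnt, was 105 to 162 CPM in Ctrl, 2.45 to 10.9 in ABpI F/+ and 28.2, 40.4 and 44.9 CPM in ABpI F/F mice. Its 3 groups did not overlap, and it was called in every comparison, at -4.22 (SE 0.29, adjusted p 1.91e-08) in ABpI F/+ vs Ctrl, -1.89 (SE 0.33, adjusted p 0.000768) in ABpI F/F vs Ctrl and -2.33 (SE 0.30, adjusted p 7.45e-05) in ABpI F/+ vs ABpI F/F. *Cd44*, a cell surface receptor for hyaluronan, was called lower in ABpI F/+ vs Ctrl at -1.32 (SE 0.31, adjusted p 0.00371), but not without ABpI F/+ replicate 1 (-1.26) or 2 (-1.23). In ABpI F/F mice it was 7.02 to 28.9 CPM, at 0.97 (SE 0.35, adjusted p 0.0687) in ABpI F/F vs Ctrl, not called, and -2.29 (SE 0.35, adjusted p 0.000241) in ABpI F/+ vs ABpI F/F, called. Without ABpI F/F replicate 3 these were 0.25 and -1.57, the latter still called, and without ABpI F/F replicate 1 the former was 1.33 and called.

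Other targets were called higher. *Sox9*, a factor of bile duct cells that hepatocytes can also express, was 1.97 to 3.85 CPM in Ctrl, 11.8 to 25.1 in ABpI F/+ and 22.8, 44.0 and 49.1 CPM in ABpI F/F mice, at 2.61 (SE 0.23, adjusted p 8.84e-08) in ABpI F/+ vs Ctrl and 3.70 (SE 0.26, adjusted p 1.59e-08) in ABpI F/F vs Ctrl. *Myc* was 2.31 to 5.44 CPM in Ctrl, 11.0 to 37.4 in ABpI F/+ and 2.97, 3.61 and 14.7 CPM in ABpI F/F mice, called higher in ABpI F/+ vs Ctrl at 2.51 (SE 0.47, adjusted p 0.00108) and not called in ABpI F/F vs Ctrl at 1.01 (SE 0.54, adjusted p 0.269). The ABpI F/F value of *Myc* leaned on replicate 3, and without it ABpI F/+ vs ABpI F/F was called at 2.61. Of 14 secreted Wnt inhibitors, of which 3 reached 1 CPM, 2 were called higher and 1 lower in ABpI F/+ vs Ctrl, 1 higher in ABpI F/F vs Ctrl and 2 lower in ABpI F/+ vs ABpI F/F. *Sfrp4*, which binds Wnt ligands, had 3 counts or fewer in each Ctrl library and 0.202 to 0.958 CPM in ABpI F/+ mice, a rise of at least 6.21-fold, and 0.261, 0.464 and 1.14 CPM in ABpI F/F mice, at least 5.80-fold higher. Its fitted log2 fold changes in these comparisons were 4.95 and 4.86, but 7.25 and 7.16 without Ctrl replicate 5, and the latter was 4.07 without ABpI F/F replicate 3. *Wif1*, another ligand-binding inhibitor, was 0 to 0.218 CPM in Ctrl and 0.368 to 1.74 CPM in ABpI F/+, called at 3.50 (SE 0.59, adjusted p 8.14e-05), with 0.0326, 0.143 and 0.665 CPM in ABpI F/F mice.

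Of 22 other pericentral genes, all with at least 1 CPM, edgeR called 10 lower in ABpI F/+ vs Ctrl, against 7.13% of genes, and 15 lower in ABpI F/F vs Ctrl, against 3.17%, with medians of -1.04 and -1.80. It called 0 higher in either, while DESeq2 called 0 and 1 higher, and 20 and 19 genes of the list had an unadjusted p under 0.05 in edgeR. Not all values were below 0, since *Slc13a3* was 0.59 and 1.15 without a call. Comparing the ABpI groups, ABpI F/+ vs ABpI F/F, 4 were called higher and 2 lower, with a median of 0.58. *Cyp2e1*, the P450 of ethanol and paracetamol oxidation and a pericentral enzyme with a wider zone than *Glul*, was 5629.9, 6816 and 8704 CPM at the lowest, median and highest in Ctrl, 1881, 2341 and 4435 CPM in ABpI F/+, and 1881, 1649 and 689 CPM in ABpI F/F mice. All 9 ABpI mice were below Ctrl and the 3 ABpI F/F mice below the ABpI F/+ mice, replicate 1 by less than 1 CPM, at -1.35 (SE 0.24, adjusted p 0.000187) in ABpI F/+ vs Ctrl and -2.31 (SE 0.33, adjusted p 2.72e-05) in ABpI F/F vs Ctrl, while ABpI F/+ vs ABpI F/F at 0.96 (SE 0.30, adjusted p 0.0299) was not called. *Rgn*, which encodes regucalcin, followed the pattern of the 10 genes at -2.51 (SE 0.20, adjusted p 2.8e-09) in ABpI F/+ vs Ctrl and -2.26 (SE 0.26, adjusted p 1.5e-06) in ABpI F/F vs Ctrl. *Cyp2a5* differed between the ABpI groups, from 627 to 1050.4 CPM in ABpI F/+ to 147, 66.4 and 169 CPM in ABpI F/F mice, at 2.54 (SE 0.37, adjusted p 0.000111) in ABpI F/+ vs ABpI F/F, and its value in ABpI F/+ vs Ctrl, -0.65 (SE 0.26, adjusted p 0.0816), was not called. *Cyp27a1*, a bile acid synthesis enzyme, also differed between the ABpI groups at 1.68 (SE 0.18, adjusted p 2.63e-06) in ABpI F/+ vs ABpI F/F, and was -2.51 (SE 0.19, adjusted p 5.62e-09) in ABpI F/F vs Ctrl. In ABpI F/+ vs Ctrl it was -0.83, under 2-fold and so not called. Its adjusted p there was at most 0.000353 in the edgeR fits that left out 1 mouse. Conversely *Avpr1a*, the vasopressin receptor, was called lower in ABpI F/+ vs ABpI F/F at -1.30 (SE 0.27, adjusted p 0.00298) but not without ABpI F/F replicate 2, at -0.91.

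Periportal genes, which oppose the pericentral programme in normal lobules, did not move as 1 block. Of 20, all with at least 1 CPM, 4 were called higher and 4 lower in ABpI F/+ vs Ctrl, 3 higher and 6 lower in ABpI F/F vs Ctrl, and 6 higher and 2 lower in ABpI F/+ vs ABpI F/F. Over all genes with a count, 6.26%, 6.06% and 2.35% were called higher and 7.13%, 3.17% and 7.32% lower in these comparisons. The median log2 fold changes of the 20 periportal genes were -0.18, -0.47 and 0.10. *Cyp2f2*, the P450 used as a periportal marker, was 814, 879 and 1093 CPM at the lowest, median and highest in Ctrl, 26.4, 29.1 and 37.7 CPM in ABpI F/+ mice and 158, 36.0 and 30.9 CPM in ABpI F/F mice. Its log2 fold change in ABpI F/+ vs Ctrl, -4.91 (SE 0.35, adjusted p 3.7e-08), was below that of each of the 10 pericentral genes. ABpI F/F vs Ctrl stood at -3.61 (SE 0.45, adjusted p 3.02e-05), and at -4.78 without ABpI F/F replicate 1, the mouse with the highest level of the 3. ABpI F/+ vs ABpI F/F at -1.29 (SE 0.36, adjusted p 0.0187) was not called, although it was called at -1.63 without ABpI F/F replicate 2 and at -1.66 without replicate 3, and it was -0.13 without replicate 1. *Etnppl* was lower too, at -3.18 (SE 0.41, adjusted p 5.62e-05) in ABpI F/+ vs Ctrl and -4.86 (SE 0.61, adjusted p 8.62e-05) in ABpI F/F vs Ctrl. *Hsd17b13*, a lipid droplet protein, was higher in both, at 2.35 (SE 0.16, adjusted p 4.44e-10) and 1.23 (SE 0.18, adjusted p 4.15e-05), and so was *Apoa4*, at 1.51 (SE 0.19, adjusted p 1.9e-06) and 1.64 (SE 0.21, adjusted p 1.03e-05). Genes called lower thus came from both zones. In ABpI F/+ vs Ctrl they were 10 of 22 pericentral and 4 of 20 periportal, against 7.13% of all genes with a count. In ABpI F/F vs Ctrl they were 15 of 22 and 6 of 20, against 3.17%.

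**Figure D3:**
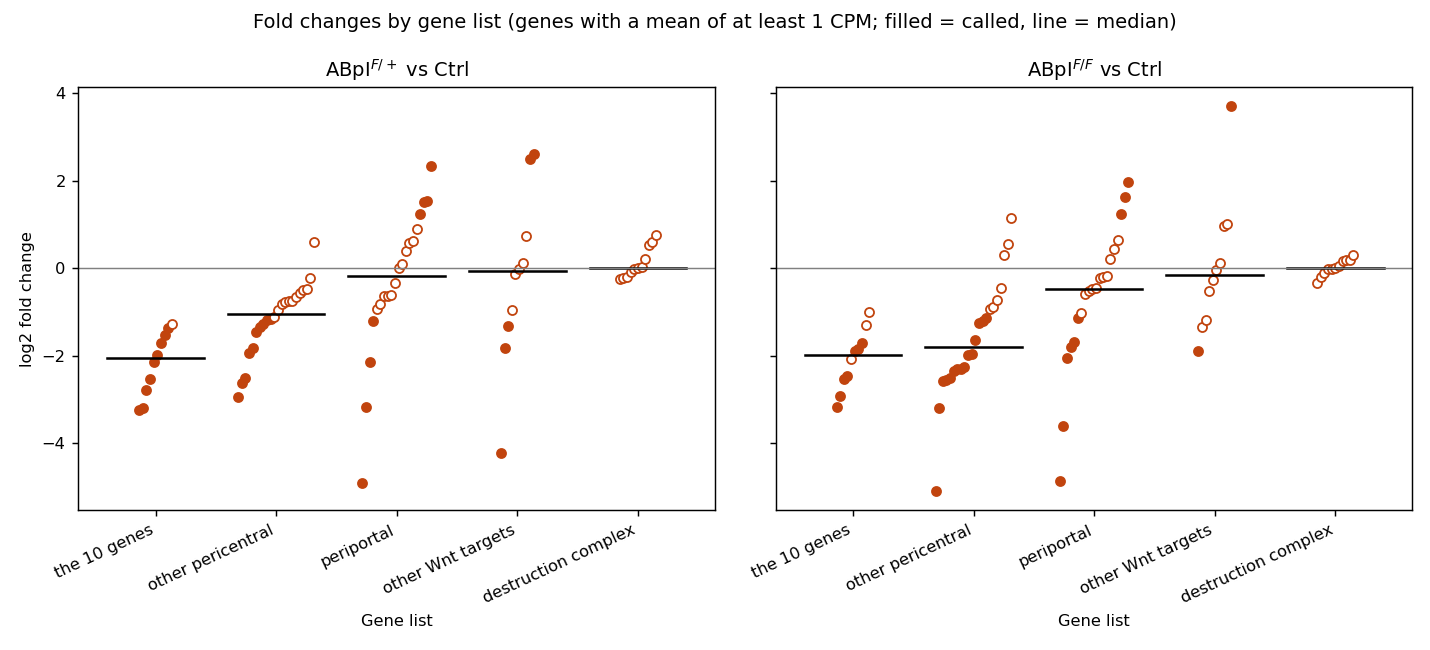
Log2 fold change of each gene with at least 1 CPM in the gene lists, 1 point per gene and the list median as a line, in ABpI F/+ vs Ctrl and ABpI F/F vs Ctrl; filled points are called. The 10 genes have medians of -2.07 and -1.99 against Ctrl and the other pericentral genes -1.04 and -1.80, while periportal genes reach from called lower to called higher around medians of -0.18 and -0.47.

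Of 17 other genes for glutamate, glutamine and ammonium handling, 11 of them with at least 1 CPM, 3 were called higher and 0 lower in ABpI F/+ vs Ctrl by edgeR and by DESeq2, with 9 at an unadjusted p under 0.05 in edgeR. By edgeR there were 3 higher and 1 lower in ABpI F/F vs Ctrl, and 3 higher and 3 lower in ABpI F/+ vs ABpI F/F. Their median log2 fold changes were 0.41, 0.24 and 0.21. *Slc1a5*, a glutamine transporter, was called higher in ABpI F/+ vs Ctrl at 1.20 (SE 0.18, adjusted p 2.72e-05). *Prodh*, which breaks proline down, was 186 to 367 CPM in Ctrl and 65.8, 53.0 and 25.7 CPM in ABpI F/F mice, at -2.37 (SE 0.31, adjusted p 2.64e-05). *Aldh18a1*, which makes the proline and ornithine precursor from glutamate, was 1.06 to 2.49 CPM in Ctrl and 3.88, 9.40 and 8.25 CPM in ABpI F/F mice, at 2.11 (SE 0.34, adjusted p 9.2e-05). The neutral amino acid transporter *Slc1a4*, a relative of *Slc1a2*, was called higher in ABpI F/F vs Ctrl at 1.97 (SE 0.24, adjusted p 6.69e-06). Thus *Oat* and *Prodh*, 2 enzymes that feed the same intermediate, were both lower in ABpI F/F mice while *Aldh18a1*, which makes it from glutamate, was higher. In the aryl hydrocarbon receptor axis, which also drives *Cyp1a2*, edgeR called 1 of 9 genes lower in ABpI F/+ vs Ctrl and DESeq2 2, and both called 0 in the other comparisons, ABpI F/F vs Ctrl and ABpI F/+ vs ABpI F/F, where edgeR had 3 and 4 at an unadjusted p under 0.05. The gene called by edgeR was *Ugt1a6a*, at -1.38 (SE 0.16, adjusted p 5.12e-07). *Ahr* itself was -0.76 (SE 0.15, adjusted p 0.000454) in ABpI F/+ vs Ctrl and -0.94 (SE 0.19, adjusted p 0.00103) in ABpI F/F vs Ctrl, under 2-fold in both, and it passed 2-fold in the latter without ABpI F/+ replicate 5 or without ABpI F/F replicate 2 (-1.02) or 3 (-1.02). *Cyp1a1*, the more inducible sister of *Cyp1a2*, was at 0.308 ± 0.125 CPM per kb in Ctrl (mean ± SD, n = 6), and ABpI F/+ vs Ctrl at -1.52 (SE 0.44, adjusted p 0.0127) was not called with all mice but was without Ctrl replicate 4 (-1.68) or ABpI F/+ replicate 5 (-1.78).

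The genes whose pattern over the 15 mice was most like that of *Glul* were *Slc25a21*, *Cyp2c54*, *Ugt1a5*, *Rgn* and *Esrrg*, out of 12315 genes compared. Likeness was the root mean square difference in log2 CPM after each gene was centred on its own mean, and it was 0.324 for *Slc25a21*, 0.367 for *Cyp2c54*, 0.381 for *Ugt1a5*, 0.398 for *Rgn* and 0.434 for *Esrrg*. Of the other 9 genes described here, *Oat* ranked 15, *Tbx3* 20, *Slc1a2* 88, *Axin2* 113, *Cyp1a2* 136, *Nkd1* 194, *Rhbg* 222, *Lect2* 292 and *Lgr5* 498. *Slc25a21* was 10.9 to 14.5 CPM in Ctrl, 2.69 to 4.45 in ABpI F/+ and 2.97, 2.75 and 1.38 CPM in ABpI F/F mice, at -1.92 (SE 0.18, adjusted p 2.5e-08) in ABpI F/+ vs Ctrl and -2.45 (SE 0.24, adjusted p 1.49e-07) in ABpI F/F vs Ctrl. Like *Glul*, it had its lowest level in ABpI F/F replicate 3.

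The promoters of the 10 genes were searched for 1 form of the core of the TCF/LEF recognition sequence. It was CTTTGA on either strand (TCAAAG on the other), in the 250 bases before the transcription start given by RefSeq on GRCm38.p6. These letters can also form part of the recognition sequence of HNF4A, a general hepatocyte factor. Promoters were at hand for 7 of the 10 genes, and 3 of the 7 held the motif, against 4544 of 32851 promoters, or 13.8%. *Glul*, *Oat*, *Nkd1* and *Axin2* had no such letters in this window, and *Rhbg*, *Lgr5* and *Tbx3* had no entry. 1 stretch per gene is shown, with the motif in capitals. They come from chr2:102706202-102706267 on the plus strand for *Slc1a2*, with the motif starting 206 bases before the transcription start, chr9:57683863-57683905 on the minus strand for *Cyp1a2* at 243 bases, and chr13:56548539-56548599 on the minus strand for *Lect2* at 31 bases. *Slc1a2* held a second match, 77 bases before the start, whose stretch (chr2:102706331-102706396) shares 29 bases with annotated exons and is not shown. The *Slc1a2* start used here lies inside the gene span given above, not at its edge. A match describes letters and is no measure of binding. The 10 genes were chosen as pericentral or Wnt target genes, and any link of the motif to their levels was not tested.
*Slc1a2*: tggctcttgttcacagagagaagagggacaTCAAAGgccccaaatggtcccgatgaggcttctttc
*Cyp1a2*: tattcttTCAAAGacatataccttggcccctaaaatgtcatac
*Lect2*: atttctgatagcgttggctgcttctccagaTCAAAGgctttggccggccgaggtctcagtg

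Markers of other liver cells also differed between groups, and their part in these results was not tested. The summed level of 12 endothelial markers, the most abundant being *Stab2*, was 214 to 307 CPM in Ctrl, 92.6 to 226 CPM in ABpI F/+ and 332, 231 and 261 CPM in ABpI F/F replicates 1, 2 and 3. So the endothelial sum of ABpI F/+ mice reached below Ctrl and that of ABpI F/F mice did not, and none of the 12 markers was at 0 in any mouse. In ABpI F/+ vs Ctrl 2 of the 12 were called lower, *Cdh5* at -1.39 (SE 0.27, adjusted p 0.000713) and *Clec4g* at -1.22 (SE 0.25, adjusted p 0.00143), while ABpI F/F vs Ctrl had 0 lower and 1 higher by edgeR and by DESeq2, with 1 at an unadjusted p under 0.05 in edgeR. The sum of 9 stellate cell and fibroblast markers, led by *Dcn*, was 211 to 279 CPM in Ctrl, 60.2 to 127 CPM in ABpI F/+ and 295, 235 and 378 CPM in ABpI F/F mice, with 6 called lower in ABpI F/+ vs Ctrl and 1 higher in ABpI F/F vs Ctrl. That of 8 macrophage markers, led by *Clec4f*, was 257 to 358 CPM in Ctrl, 110.0 to 183 CPM in ABpI F/+ and 208, 392 and 447 CPM in ABpI F/F mice, with 5 called lower in ABpI F/+ vs Ctrl and, in ABpI F/F vs Ctrl, 0 by edgeR or DESeq2 and 1 at an unadjusted p under 0.05 in edgeR. The sum of 8 cholangiocyte markers, led by *Spp1*, was 50.3 to 88.6 CPM in Ctrl, 54.8 to 176 CPM in ABpI F/+ and 237, 814 and 1196 CPM in ABpI F/F mice, with 2 called higher and 2 lower in ABpI F/+ vs Ctrl and 5 higher in ABpI F/F vs Ctrl. The sum of 8 lymphocyte markers, led by *Cd79a*, was 3.64 to 5.95 CPM in Ctrl, 0.812 to 2.78 CPM in ABpI F/+ and 5.87, 5.18 and 13.1 CPM in ABpI F/F mice, with 3 called lower in ABpI F/+ vs Ctrl, where 4 markers were at 0 in at least 1 mouse, and 1 higher in ABpI F/F vs Ctrl. The sum of hepatocyte markers was 101429 to 140586 CPM in Ctrl, 182716 to 261264 CPM in ABpI F/+ and 236480.0, 210199 and 141232 CPM in ABpI F/F mice.

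The time of day of sampling is not given, and the clock genes differed between the groups. A score over clock genes, the mean z-score of the PER, REV-ERB and PAR bZIP arm minus that of the BMAL1, CLOCK and NPAS2 arm, lay at 0.58 to 1.26 in ABpI F/+ mice and at -1.96, -3.35 and -2.64 in ABpI F/F replicates 1, 2 and 3. In Ctrl it was -2.63 in replicate 1 and 0.68 to 1.26 in the other 5. Only Ctrl replicate 1 thus lay among the ABpI F/F scores, so the score and the ABpI F/F genotype largely cannot be told apart. Of 14 clock genes, edgeR called 3 higher and 0 lower in ABpI F/+ vs Ctrl, 0 higher and 4 lower in ABpI F/F vs Ctrl, and 5 higher and 1 lower in ABpI F/+ vs ABpI F/F. At an unadjusted p under 0.05 there were 5, 11 and 14. DESeq2 called 3 higher and 0 lower, 1 higher and 8 lower, and 7 higher and 2 lower. After the score was added as a term to the model, edgeR called 9 of the 10 in ABpI F/+ vs Ctrl and *Oat*, *Cyp1a2* and *Nkd1* alone in ABpI F/F vs Ctrl. That fit gave 0 calls for ABpI F/+ vs ABpI F/F and 5 genes at an unadjusted p under 0.05. There *Rhbg* was -1.44 and *Slc1a2* 1.56, against -1.30 and 1.91 without the score. Over all genes its lower calls were 1401, 253 and 48 in the 3 comparisons, against 1454, 647 and 1491 without the score, so calls were lost far beyond the 10 genes in the comparisons with ABpI F/F mice. The ABpI F/F vs Ctrl log2 fold changes in that fit were -2.25 for *Glul*, -1.77 for *Rhbg*, -1.64 for *Tbx3* and -2.87 for *Slc1a2*, the 4 genes that lost their call.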

How the data were processed

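Liver RNA of 15 female mice was measured as stranded mRNA libraries. The authors trimmed the paired-end reads, aligned them with HISAT2 to the mm10 build (GRCm38) and counted them per gene with featureCounts 2.0.8; the annotation and the strand setting are not stated. The deposited values are raw counts, 1 column per mouse, although 23 samples are listed and 8 mice are named by 2 samples. Replicates are separate mice. The mouse name heading a column gave its group. Replicates are numbered in the order of listing. A second deposited table gave the gene symbols, and 5 of its per-sample columns, headed by a bare number, were not used, nor were the authors' comparison columns with fold changes and p-values.

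Counts of all 27179 genes, of which 20380 have a count and 1319 have no symbol, were fitted in R 4.3.3 with edgeR 4.0.16, with TMM scaling, robust dispersions and 1 quasi-likelihood model with 3 groups in its legacy form. The p-values of each of the 3 comparisons were adjusted by Benjamini-Hochberg over all genes. Calls took an adjusted p under 0.01 and a log2 fold change of 1 or more in size. CPM are counts relative to the TMM-scaled library size, log2 CPM used a prior count of 2, and the SE is the log2 fold change over the square root of F. For a group in which no library passed 3 counts, a fold is given as a lower bound against 3 counts per library, which covers counting error only. Depth ran from 24742910 to 32262649 counts per mouse. Marker sums add the CPM of a list's genes. Positions and exon lengths came from GENCODE M21, and promoters from RefSeq on GRCm38.p6.

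Named genes are the 10 genes, fixed genes of the lists (*Ctnnb1*, *Wnt2*, *Wnt9b*, *Rspo3*, *Sp5*, *Notum*, *Znrf3*, *Rnf43*, *Lef1*, *Ahr*, *Cyp1a1*, *Cyp2e1* and *Cyp2f2*), per list, comparison and direction up to 3 called genes that changed most, and the 5 genes most like *Glul*. *Icmt* and *Alb* were added as checks of genotype and tissue. The members and lists were chosen with earlier results of these data known, as was the clock gene score, and no list was given a set test. 1 gene that the naming rule selects is not reported here.

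Alternatives were RLE size factors, DESeq2 1.42.0, genes passing filterByExpr, the quasi-likelihood default in edgeR 4, dispersions without robust estimation, fits on only the mice of the groups compared, an adjusted p under 0.05, a log2 fold change of 2 or more in size, strain label or clock gene score as a covariate, and leaving out each mouse in turn. The other deposited table was planned as an alternative but not refitted, since its counts are identical where its columns name a mouse. The edgeR and DESeq2 fits were tested on simulated data. Reads were not analysed.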

Additional observations from a re-analysis of the deposited data

Results flagged for a closer look

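1 of the 20 groups tested, each of 6 mice for 1 of the 10 genes, held a sample far from the others. *Lgr5* in ABpI F/+ mice was highest in replicate 2 at 3.40 CPM, and the next mouse lay at 1.17 CPM, a gap of 0.710 of the range of the group. Chance flags about 1 in 20 groups. The *Lgr5* log2 fold change in ABpI F/+ vs Ctrl was -2.78 with this mouse and -3.54 without it.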

How the results depend on the processing

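Over 25 alternatives and the 3 comparisons, no log2 fold change of the 10 genes that was called by the main or the alternative setting changed sign. Of the other named genes 1 did: *Ciart*, a clock gene that is part of the score, had -4.49 in ABpI F/F vs Ctrl, against 0.24 in the fit with that score. Values called in neither setting changed sign 66 times over the 300 gene results. RLE and DESeq2 shifted the median of genes with at least 1 CPM by at most 0.0135 on the log2 scale.

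In ABpI F/+ vs Ctrl, 9 genes were called, and 9 to 10 without 1 mouse; DESeq2 and the fit on only the mice compared called 10; a log2 fold change of 2 or more in size left 5, and strain label as a covariate 5. In the strain fit *Oat* (-2.11), *Axin2* (-0.98), *Lgr5* (-3.10) and *Tbx3* (-1.32) lost their call, where the main values were -1.71, -1.37, -2.78 and -1.52. For ABpI F/F vs Ctrl that fit lost *Slc1a2* (-3.07) and *Tbx3* (-1.64), where the main values were -3.18 and -1.84. In ABpI F/F vs Ctrl, 7 were called, and 6 to 8 without 1 mouse; DESeq2 called 9 and the fit on only the mice compared 10; the stricter fold left 4, strain label 5, and the clock gene score 3. In ABpI F/+ vs ABpI F/F, 2 were called, and 1 to 4 without 1 mouse; DESeq2 called 4, fits on only the mice compared 0, the stricter fold 0, strain label 1 and the clock gene score 0. The stricter fold lowers a count by its own construction, and the cause of the other differences was not tested. The other deposited table was not refitted, because its 10 columns named by mouse hold identical counts in 10 of 10.

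No paired analysis was possible because the labels and columns carry no number shared across groups: they give names of single mice, a suffix _1 or _2 marks samples of 1 mouse, and the replicate numbers used here are the order of listing.

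Only 3 ABpI F/F mice were sequenced, and 1 of them was lowest for 9 of the 10 genes. Only 1 Ctrl mouse has the strain label of the ABpI mice, so the strain fit rests on it. Times of sampling are not given, nor are the ages of Ctrl and ABpI F/+ mice. The 3 ABpI F/F mice were 12, 20 and 30 weeks old, and which was which is not stated. Whole tissue does not show which cells carry a transcript, and genes with a few counts per library, such as *Lgr6* and *Wnt16*, are limited by depth.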
